A study of Drosophila melanogaster with 2 samples.

Results

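Among the sites at which chromatin from Zfh2-GFP embryos was called enriched, 3336 were weak calls with their summit inside a protein-coding exon. Zfh2 is a large fly protein with zinc fingers and homeodomains, and it was precipitated with an antibody against green fluorescent protein (GFP) from embryos that carried a transgene for Zfh2 tagged with GFP at its C terminus. Whole embryos of mixed sex were collected from 0 to 24 h of development, so that each call is a value over all tissues and stages of that collection, and the tagged protein came from a transgene rather than from the endogenous locus. There were 2 libraries, biological replicates 1 and 2 of 1 group with no second genotype or treatment, and therefore no contrast could be tested. All values are descriptions, and intervals cover counting error only.

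The calls were chosen by measured values. They came from the relaxed list called on the pooled reads of both replicates, which holds 30000 calls, of which 29724 were off chromosome 4. A call was weak when it shared no base with any of the 4344 peaks that passed the irreproducible discovery rate (IDR), a filter on the agreement of replicate ranks, and 24646 calls off chromosome 4 met that condition. Of these, 3336 (13.5%) had their summit in an annotated coding sequence and more than 500 bp from every annotated transcription start site (TSS). The other weak calls had their summits within 500 bp of a TSS (6512, termed promoter calls), in introns (9905), between genes (3838), in untranslated regions (821) and in noncoding exons (234). A relaxed list is made deliberately long so that the IDR step can see noise as well as signal, so a call in it is a candidate and not a reproducible peak.

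Coding exons hold the bases that ribosomes read, are richer in G and C than fly introns, and often carry tandem triplets such as CAG that encode runs of one amino acid. Chromatin immunoprecipitation recovers sonicated fragments, here of 200 to 800 bp, so a summit places a call only to within such a fragment. Zinc finger and homeodomain factors are known mainly from promoters, introns and sequence between genes, and a weak call in an exon is a candidate region, not an established binding site.

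The 10 strongest calls on arms 2L, 3L, 3R and X are shown first, because their pooled signals lie closest to the lowest IDR peak. Each is the plus strand of dm6 (BDGP6, from RefSeq), 50 bp on each side of the summit, and is shortened where it would run into an untranslated region. Windows were not shortened at introns, so a window can hold sequence that is not coding. The l(3)mbn summit lay in an exon of 63 bp, shorter than its window of 101 bp, and only 23% of the 400 bp Imp call was coding. A marked word or a run of bases in them is therefore not always in coding sequence. Capitals mark matches, on either strand, to any of 14 short words that are spelled out with their counts further on, and a window with none is all in lower case.
InR (chr3R:21580204-21580304): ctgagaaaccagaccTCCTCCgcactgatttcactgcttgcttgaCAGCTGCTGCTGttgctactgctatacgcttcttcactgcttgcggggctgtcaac
Pde1c (chr2L:11816561-11816625): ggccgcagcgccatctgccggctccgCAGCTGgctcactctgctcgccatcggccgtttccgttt
CG33181 (chrX:8491955-8492030): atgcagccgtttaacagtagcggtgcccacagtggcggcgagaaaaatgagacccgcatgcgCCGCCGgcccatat
l(3)mbn (chr3L:6124785-6124885): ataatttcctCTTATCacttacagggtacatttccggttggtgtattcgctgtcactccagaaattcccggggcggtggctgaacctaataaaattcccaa
kibra (chr3R:14723490-14723573): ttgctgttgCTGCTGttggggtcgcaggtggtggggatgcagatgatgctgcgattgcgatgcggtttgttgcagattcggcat
Imp (chrX:10805219-10805319): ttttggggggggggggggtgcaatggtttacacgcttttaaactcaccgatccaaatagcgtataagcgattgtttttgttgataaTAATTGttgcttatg
Xrp1 (chr3R:18926417-18926501): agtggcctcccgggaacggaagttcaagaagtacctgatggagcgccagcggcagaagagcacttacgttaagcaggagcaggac
Snx27 (chrX:5737232-5737332): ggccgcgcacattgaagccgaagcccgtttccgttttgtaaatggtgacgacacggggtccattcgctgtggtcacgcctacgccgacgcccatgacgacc
Exn (chr3L:16981393-16981493): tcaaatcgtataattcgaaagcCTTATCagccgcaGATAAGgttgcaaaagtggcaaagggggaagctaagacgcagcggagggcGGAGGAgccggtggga
skd (chr3L:21024970-21025020): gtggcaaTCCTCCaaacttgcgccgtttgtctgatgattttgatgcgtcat
These windows had little in common. GGAGGA was in 3 of them as printed, every other word in fewer, the Xrp1 and Snx27 windows held none, and the Imp window began in a run of G. GC content of the full 101 bp window ran from 41.6% for Imp, an RNA-binding protein of the IGF2BP family, to 69.3% for Pde1c, a cyclic nucleotide phosphodiesterase.

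The 5 windows with the longest tandem triplet runs, on the same arms, are shown because tandem triplets in coding exons can encode runs of the same amino acid. Runs as long as these were rare, as the shares below show. Capitals mark the run.
CG8051 (chrX:19303844-19303924): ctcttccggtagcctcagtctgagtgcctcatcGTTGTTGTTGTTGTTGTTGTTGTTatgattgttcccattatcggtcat
CG32365 (chr3L:7890144-7890244): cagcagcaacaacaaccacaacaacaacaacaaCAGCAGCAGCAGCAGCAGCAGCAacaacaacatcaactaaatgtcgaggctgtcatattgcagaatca
Rgl (chr3L:13914217-13914317): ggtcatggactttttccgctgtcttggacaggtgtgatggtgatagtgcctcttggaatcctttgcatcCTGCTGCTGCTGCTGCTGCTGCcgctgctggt
Pdp1 (chr3L:7830884-7830984): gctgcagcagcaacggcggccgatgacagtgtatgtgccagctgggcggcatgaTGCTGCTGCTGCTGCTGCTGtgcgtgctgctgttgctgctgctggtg
Lim1 (chrX:8758151-8758251): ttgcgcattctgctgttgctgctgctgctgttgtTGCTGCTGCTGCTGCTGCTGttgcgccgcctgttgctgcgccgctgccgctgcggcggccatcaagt
The runs were 24 bp in CG8051, 23 bp in CG32365, 22 bp in Rgl, 20 bp in Pdp1 and 20 bp in Lim1. All but the CG32365 call were held by replicate 1 alone, and CG32365 by replicate 2 alone. Their pooled signals, the peak caller's own score, lay between 20.2 and 25.9. Runs of at least 9 bp were found in 12.3% of the coding-exon calls (95% exact binomial interval 11.2 to 13.4%) and in 10.9% of 183294 windows of the same width laid every 100 bp over coding sequence open to the rule, meaning coding bases over 500 bp from a TSS and over 200 bp from an IDR peak. For runs of at least 18 bp the shares were 0.390% (0.208 to 0.665%) and 0.430%.

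By signal the coding-exon calls were the lowest of the weak classes. Their pooled signal had a median of 19.8, with quartiles at 17.3 and 23.3 and a range of 15.6 to 64.4, against medians of 25.3 at promoters, 21.9 in introns and 21.2 between genes. The lowest IDR peak had a signal of 64.9, above the strongest coding-exon call, so the rule acted as an upper limit on signal. A −log10 q over 2 was given to 31 of the 3336 calls (0.929%), against 11.5% of all weak calls. Past the IDR threshold, 9 peaks had summits in coding exons at the same distance from a TSS, led by otp, a homeodomain gene, at a signal of 341, and by CG31259 at 136.

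Coding-exon calls were held by replicate 2 less often than weak calls in general, while their share in replicate 1 was near the background. The summit lay in a call of replicate 1 for 2398 of 3336 (71.9%, 95% exact binomial interval 70.3 to 73.4%), where the background over all weak calls was 68.7%. For replicate 2 the count was 1088 (32.6%, 31.0 to 34.2%) against a background of 57.5%. Both replicates held 567 of the calls (17.0%, 15.7 to 18.3%) against a background of 34.7%. Replicate 1 alone held 54.9%, replicate 2 alone 15.6% and neither 12.5%, against 34.1%, 22.8% and 8.46% of all weak calls. When the lists were limited to the strongest 15000 calls of each replicate, the share in replicate 1 was 32.6% against 38.1% of all weak calls, and in replicate 2 it was 10.6% against 34.4%. In introns, replicate 1 held 66.5% of the weak calls and replicate 2 held 61.3%, and between genes the shares were 60.2% and 61.6%. The pooled list was made from the reads of both libraries, so neither replicate's list is independent of it.

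**Figure D1:**
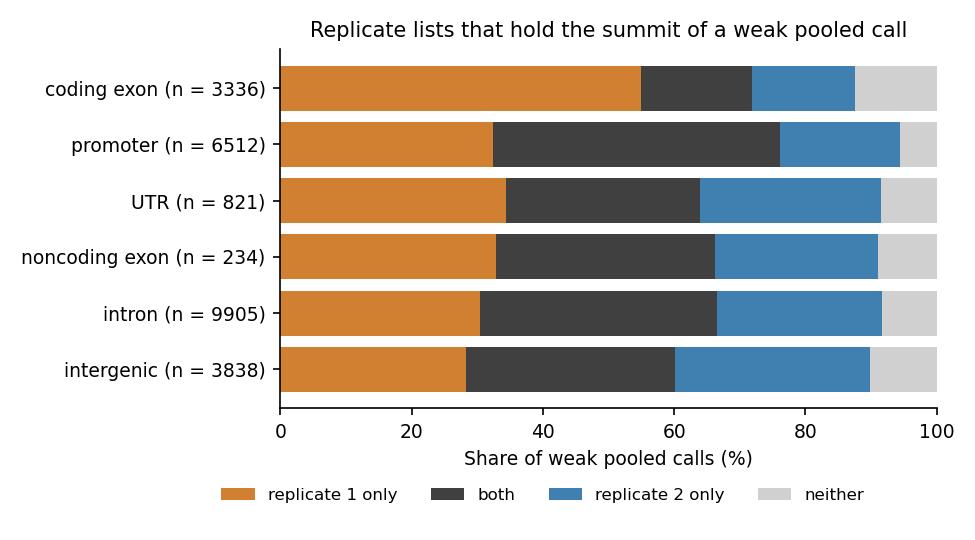
Share of weak pooled calls (x axis, %) whose summit lay in a call of replicate 1 only, both replicates, replicate 2 only or neither, for each class of position (y axis, with the number of calls). Coding exons had the longest replicate 1 segment, 54.9%, and the shortest segment for both replicates, 17.0%.

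The same rule was then applied to each replicate's own list. In replicate 1 it found 4553 coding-exon calls among 24747 weak calls (18.4%, 95% exact binomial interval 17.9 to 18.9%), a density of 248 per Mb of open coding sequence. In replicate 2 it found 1925 among 24258 (7.94%, 7.60 to 8.28%), or 105 per Mb. The 2 full lists held 30000 and 29690 calls. Over the 18.3 Mb of open coding sequence the pooled calls had a density of 182 per Mb, beside 193 in introns, 107 between genes and 405 at promoters.

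Agreement between replicates rose with the pooled signal. In the weakest quartile of the 3336 calls 2.16% lay in calls of both replicates, in the second 4.32%, in the third 15.6% and in the strongest 45.9%. Replicate 1 held 51.0% of the weakest quartile and 92.6% of the strongest, and replicate 2 held 22.3% and 52.9%. Neither list held 28.9% of the weakest quartile and 0.480% of the strongest. Pooled signal chose the calls and is built from both libraries, so this gradient is a description.

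All 20 of the strongest calls lay in calls of both replicates. The strongest was in InR, the insulin receptor (FBgn0283499), on arm 3R at 21580054 to 21580453, with a pooled signal of 64.4, 52.3 in replicate 1 and 10.8 in replicate 2. Signals are comparable only within a list, and the InR call ranked 2688 in replicate 1 and 17045 in replicate 2. Its summit was 9937 bp from a TSS in an exon of 1219 bp. Pde1c followed at 63.2, with ranks of 4028 and 5658, its summit near the end of the coding sequence (99.6% of its length). CG33181 had 62.9 and ranks of 4956 and 4665, so the libraries ranked it closely. For kibra, which encodes a Hippo pathway scaffold, the pooled signal was 52.8 and the ranks 3053 and 11935. Imp reached 51.5 with ranks of 4227 and 19489.

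The remaining strongest calls were in genes of varied function. Vha16-1, a proton channel subunit of the vacuolar ATPase, had a pooled signal of 49.9, with ranks of 8622 in replicate 1 and 5674 in replicate 2. The blw gene, which encodes the alpha subunit of mitochondrial ATP synthase, had 49.1 and ranks of 6523 and 4230. Gr39b, a gustatory receptor gene, had 46.2 and ranks of 9670 and 5131. These genes, with CG33181, SCOT and GstO3, were the ones among the 20 that stood higher in the replicate 2 list than in the replicate 1 list. The Gr39b window also had the lowest GC content of the 20, 29.7%. Others were Xrp1, a bZIP factor known from cell competition, at 49.7, Snx27, a sorting nexin, at 49.4, Exn at 49.1, and skd, a subunit of the Mediator complex, at 48.6. The polarity gene scrib had 46.1, Uba1, the ubiquitin-activating enzyme, 45.3, and GlcAT-S, a glucuronyltransferase, 45.2. The l(3)mbn, SCOT, l(1)G0196, GstO3 and CG5346 calls lay between 45.9 and 53.9.

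**Figure D2:**
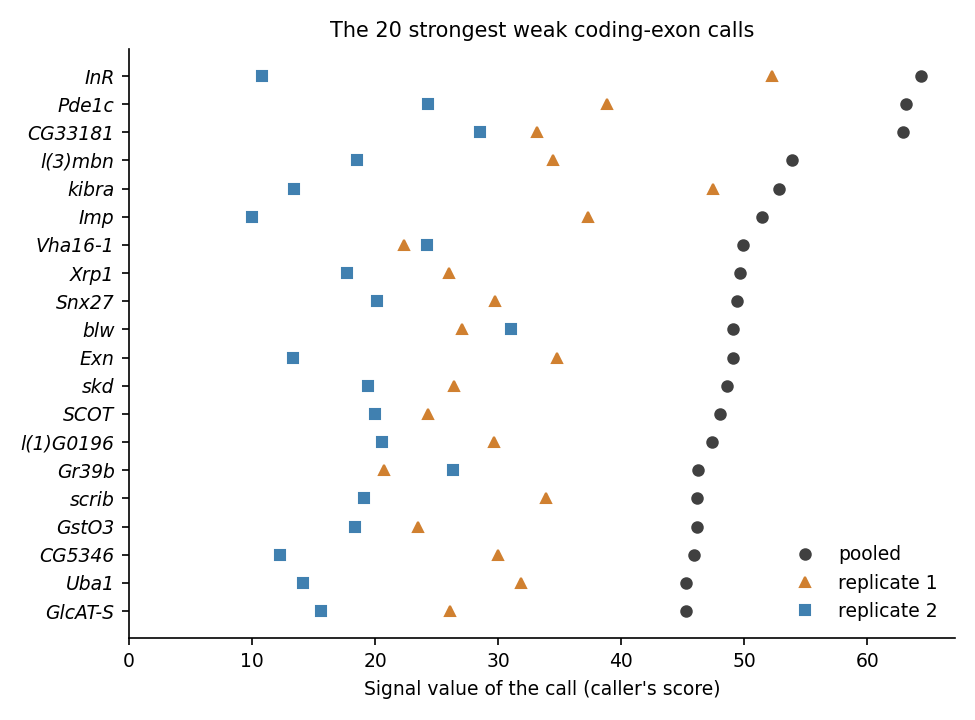
Signal value of the call (x axis, the caller's score) in the pooled, replicate 1 and replicate 2 lists for the 20 strongest coding-exon calls (y axis, by gene, strongest at the top). Pooled signal ran from 64.4 in InR to 45.2 in GlcAT-S, and each list has its own scale, so points of different lists are not comparable with each other.

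GC content at the summits was above that of coding sequence as a whole in the pooled list and in replicate 1. In replicate 2 it was not. The coding-exon calls of each replicate's own list had a median of 56.4% GC in replicate 1 and 53.5% in replicate 2. The values that follow are of the pooled list. Windows of 101 bp at the summits had a median of 55.4% GC (quartiles 51.5 and 60.4%), against 53.5% (48.5 and 58.4%) over all open coding windows. Flanks 1000 bp from the summits had a median of 45.5%, and the 2832 flanks that were themselves coding had 53.5%, as did coding windows in general.

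**Figure D3:**
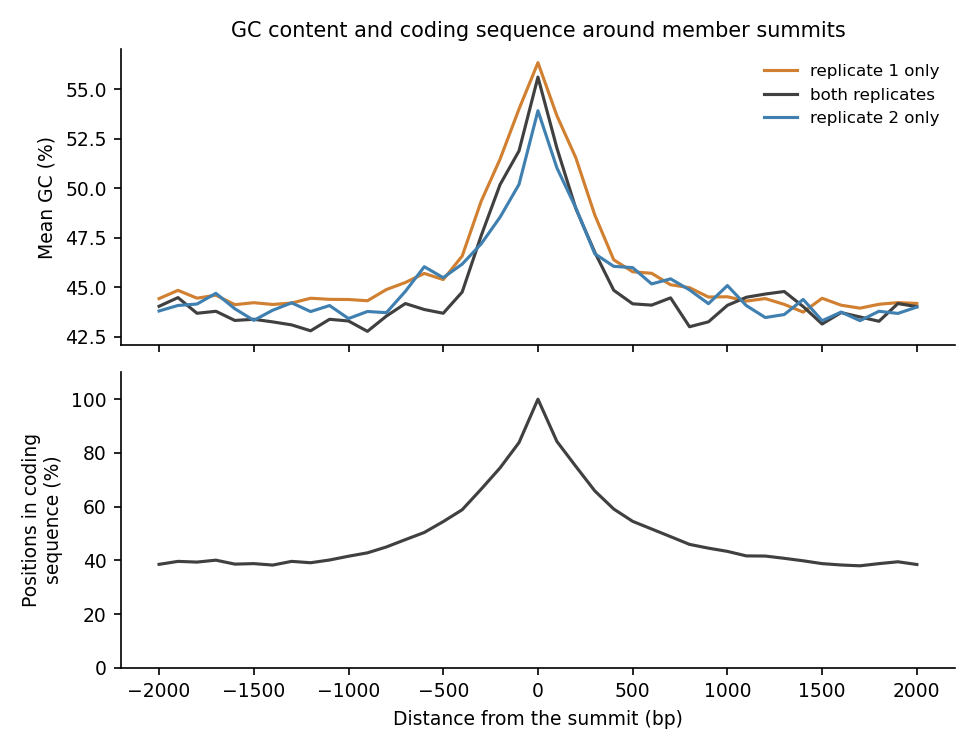
Mean GC content (upper panel, %) and share of positions in coding sequence (lower panel, %) by distance from the summit (x axis, bp), with the upper panel split by the replicate lists that held the summit. At the summit mean GC was 56.3% for replicate 1 only and 53.9% for replicate 2 only, and at 1000 bp on either side 41.5% and 43.3% of positions were coding.

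Density rose with GC content in the pooled list and in replicate 1 but not in replicate 2. Coding windows under 35% GC held 36.4 calls per Mb (12 calls, 95% Poisson interval 18.8 to 63.5), those of 50 to 55% GC held 176 (165 to 189), and those of 65% or more held 336 (297 to 379). Replicate 1's own coding-exon calls went from 30.3 per Mb under 35% to 435 per Mb at 65% or more. In replicate 2 the 8 GC classes lay between 99.8 and 115 per Mb. Replicate 1 held 8 and replicate 2 held 6 of the 12 pooled calls under 35% GC, and, in order, 78.4% and 26.5% of the 264 calls at 65% or more. An order of GC content in the same direction was seen outside coding exons, where weak intronic calls of replicate 1 alone had a median of 44.6% GC and those of replicate 2 alone 39.6%. Depth of the libraries is not known from these files, and its part in the difference was not tested.

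**Figure D4:**
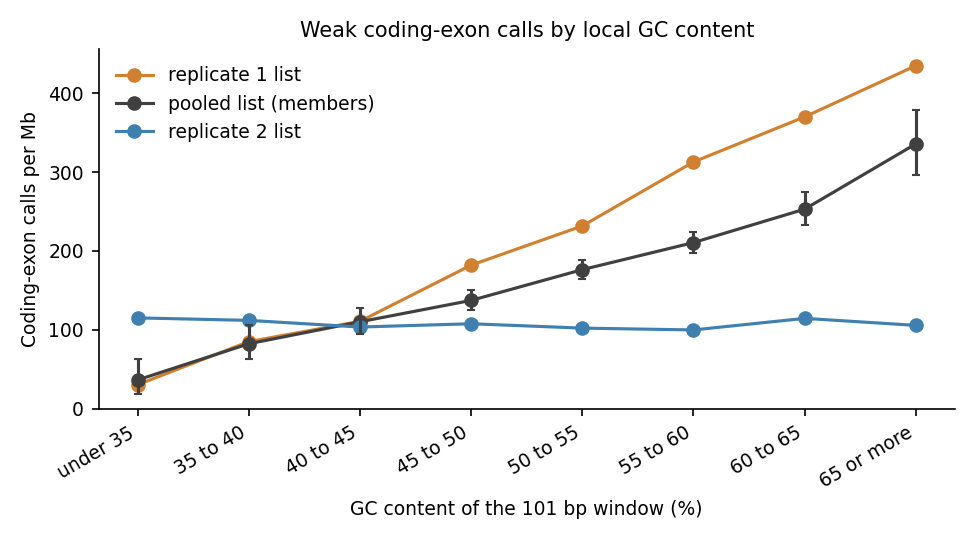
Coding-exon calls per Mb of coding sequence (y axis) by GC content of the 101 bp window (x axis, %), for the pooled list with 95% Poisson intervals and for the list of each replicate. The replicate 1 line climbs from 30.3 to 435 per Mb while the replicate 2 line stays between 99.8 and 115 per Mb.

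Among 14 short words searched on both strands of the 101 bp summit windows, and counted once per window whatever their overlap with one another, the commonest was CAGCAG. It was in 661 windows (19.8%, 95% exact binomial interval 18.5 to 21.2%), against 17.6% of all coding windows and 10.5% of flanks. CCGCCG was in 13.8% (12.61 to 14.97%) against 10.2% of coding windows, a ratio of 1.35, and it is itself all G and C. It was in 15.1% of the calls held by replicate 1 alone and in 10.2% of those held by replicate 2 alone. AAAAAA was in 1.98% (1.53 to 2.51%) against 3.42%. The other repeats stood near coding sequence, with GGAGGA in 12.4% of calls against 11.7% of coding windows. GAGAGAG, the word of GAGA factor, was in 0.510% against 0.485%. CACACACA was in 0.180% against 0.254%.

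Words known from classes of transcription factor stood mostly near their shares in coding sequence. TAATTA, the core that many homeodomains bind, was in 0.689% of summit windows (0.438 to 1.03%) against 1.01% of coding windows and 6.69% of weak intronic calls. CAATTA was in 2.40% against 2.76% of coding windows and 9.70% of weak intronic calls. The E-box CAGCTG was in 8.42% against 7.67% of coding windows. The E-box CACGTG was in 1.56% against 1.53%. CAGGTAG, the word of the early activator Zelda, was in 1.14% against 0.956%. GATAAG, the GATA factor word, was in 3.45% against 3.34%. TATCGATA, the DNA replication-related element of fly promoters, was in 1 window (0.030%) against 0.0851% of coding windows and 3.33% of weak promoter calls. GGTCACAC, a core promoter word, was in 8 windows (0.240%) against 0.171% of coding windows and 2.50% of weak promoter calls. A match is a run of letters and not a bound site.

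The calls lay nearer to transcription start sites than coding sequence does, even beyond the 500 bp that the rule excluded. The median distance was 1399.5 bp, against 1865 bp for coding windows. Density fell from 259 per Mb at 500 to 1000 bp, through 198 at 1000 to 2000 bp, 154 at 2000 to 5000 bp and 115 at 5000 to 10000 bp, to 69.7 beyond. Replicate 1's list fell from 347 to 111 per Mb and replicate 2's from 136 to 74.0 per Mb over the same range. At the margin itself, the calls just inside were in lap at 501 bp with a signal of 31.4, in Mob4 at 501 bp with 16.5 and in COX5BL at 502 bp with 22.1. Just outside, all at 500 bp, were CG13982 with 29.3, HemK2 with 21.8 and SecS with 19.5, and 923 weak coding calls in all lay within the margin.

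Within genes, density was highest in exons of 500 to 1000 bp (230 per Mb) and lower in those up to 200 bp (138) and over 2000 bp (119). Along the coding sequence it was 229 per Mb from 0 to 20% of its length, 179 from 20 to 40% and 153 from 40 to 60%. It was 183 from 60 to 80% and 185 from 80 to 100%. Calls were 400 bp wide, and 43.6% of them lay wholly in coding sequence. The summit was coding in every protein-coding transcript of its gene for 86.0% of calls and 85.9% of coding windows. An IDR summit lay within 1000 bp of 291 calls (8.72%), and another coding-exon call within 1000 bp of 534 (16.01%). By arm, density was 181 per Mb on 2L, 203 on 2R, 199 on 3L, 191 on 3R and 130 on X. The X was also lowest in each replicate's list, at 180 per Mb in replicate 1 and 80.7 in replicate 2, and weak intronic calls were lowest there too, at 175 per Mb against 187 to 208 on the other arms. Weak promoter calls on X stood at 417 per Mb, within the 373 to 425 of the other arms.

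At least 1 call was found in 2702 of 12311 protein-coding genes with open coding sequence (21.9%). Of these, 2194 genes had 1 call, 416 had 2 and 92 had 3 or more. The share of genes with a call grew with the length of open coding sequence, from 6.47% in the shortest quartile of genes to 36.9% in the longest, while density fell from 290 to 141 per Mb. The gene with the most calls was lola, a BTB zinc finger gene of many isoforms, with 8, of which 6 lay in calls of replicate 1, 4 of replicate 2 and 3 of both. Msp300, a giant nuclear envelope and muscle protein, had 7 in 63805 bp of open coding sequence, 6 of them in replicate 1 and 0 in replicate 2. CG42748 had 6, of which 3 lay in both replicates. The RasGAP gene raskol, the adaptor gene CAP, alpha-Spec, KrT95D and Alh had 5 each, and Pde1c and Pdp1, a bZIP factor gene, had 4 each and were named among further genes with 4 because their summed signals were highest. The 4 calls in Pdp1 were in the strongest quartile, with signals from 24.98 to 29.2, and 7 IDR summits lay in its gene body. Overlapping calls were counted separately, so the counts per gene are not counts of separate sites. In lola the calls at 10520782 to 10521181 and at 10520982 to 10521381 overlapped and had the same replicate 2 call, with a signal of 9.55. Calls also overlapped each other in raskol, KrT95D and Alh.

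Genes with an IDR peak at their start carried more weak calls in their exons per Mb. Of 3234 genes with an IDR summit within 500 bp of a TSS, 1045 had a coding-exon call (32.3%, 95% exact binomial interval 30.7 to 34.0%). Of 9077 genes without, 1657 had one (18.3%, 17.5 to 19.1%). Open coding sequence had a median of 1226 bp in genes with such a summit and 933 bp in those without. The 2 shares are therefore not at equal length. Per Mb the values were 233 and 158 in the pooled list, 316 and 217 in replicate 1's list and 122 and 97.1 in replicate 2's, so both replicates gave the same order. Coding windows of both kinds of gene had a median GC content of 53.5%. Split by GC content, density was 225 against 152 per Mb at 50 to 55% and 452 against 289 at 65% or more, while at 35 to 40% it was 82.4 against 82.2. Split by distance, it was 347 against 225 per Mb at 500 to 1000 bp from a TSS, and 127 against 88.4 beyond 5000 bp.

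Gene lists differed widely in the density of calls. The lists were chosen with earlier results of these data known, and their values stand beside 21.9% of genes and 182 calls per Mb over all protein-coding genes. Energy metabolism was at the top, with a call in 10 of 14 genes and 12 calls, or 800 per Mb (95% Poisson interval 413 to 1398). Its strongest were blw, then sesB, the mitochondrial ADP/ATP carrier, with a pooled signal of 28.5, and Pfk, phosphofructokinase, with 23.2. Translation factors had a call in 9 of 15 genes and 14 calls, or 705 per Mb (386 to 1183). They were led by eEF2 with 34.9, the elongation factor that moves the ribosome, by eEF1alpha1 with 33.6, which delivers aminoacyl-tRNA, and by pAbp, the poly(A)-binding protein, with 31.4. In replicate 1 the eEF1alpha1 call had a signal of 32.0 and in replicate 2 there was none, while the pAbp call was in replicate 2 alone with 22.3.

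Actin and tubulin genes had calls in 8 of 16, at 504 per Mb (231 to 957). The strongest were in Act5C, a cytoplasmic actin, with 38.7, alphaTub84D with 31.0 and alphaTub67C with 24.2. Actins and tubulins are families of near-identical genes, and how reads shared between copies were placed is not stated in the labels, so their calls are uncertain. Heat shock genes had calls in 6 of 15, at 387 per Mb (156 to 797), led by the constitutive chaperones Hsc70-4 with 27.7 and Hsc70-3 with 24.7 and by Hsp26 with 24.3. RNA polymerase and splicing genes had calls in 8 of 14, at 253 per Mb (126 to 452), led by the elongation factor gene Spt5 with 27.7, Polr2A, the largest subunit of RNA polymerase II, with 27.2, and x16, an SR splicing factor gene, with 25.2.

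In replicate 1's own list these 5 lists also stood above all genes. In replicate 2 they rested on few calls, and heat shock genes and RNA polymerase and splicing genes were near the value of all genes. For the same 2 lists the interval of the pooled density held the 182 per Mb of all genes. Replicate 1 gave 867 per Mb for energy metabolism, 856 for translation factors, 608 for heat shock genes, 504 for actins and tubulins and 299 for RNA polymerase and splicing genes, against 248 over all genes. Replicate 2 gave, in that order, 200, 252, 111, 168 and 115 against 105, from 3, 5, 2, 3 and 5 calls. Coding sequence of the first 4 lists lay close to start sites, with median distances of 1132 to 1210 bp, and that of RNA polymerase and splicing genes at 2122 bp, against 1865 bp over all genes. Median GC content was 52.5% for RNA polymerase and splicing genes, 54.5% for translation factors and 57.4 to 59.4% for the other 3 lists, against 53.5%. An IDR summit within 500 bp of a TSS was present in 71.4% of energy metabolism genes, 60% of translation factors, 57.1% of RNA polymerase and splicing genes, 33.3% of heat shock genes and 25% of actins and tubulins, against 26.3% of all genes. It was also present in 65% of chromosome and replication genes, whose density is among the lower values given further on. The part of TSS distance, GC content, promoter peaks and the length of open coding sequence in the list values was not tested.

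Lists of large or developmentally regulated genes were lower per Mb than those above. Median TSS distance of coding sequence was 7476 bp for muscle structural genes and 9510 bp for the spectrin and cytoskeletal giant list. It was 3402.5 bp for Notch pathway genes, 3182.5 bp for Polycomb and trithorax genes and 1329.5 bp for segmentation genes, against 1865 bp over all genes. Its part in these densities was not tested. Muscle structural genes had calls in 10 of 18 but 119 per Mb (75.3 to 178), led by Mhc, muscle myosin heavy chain, with 32.1, Tm2, a tropomyosin, with 28.5 and Mlc2, a myosin light chain, with 26.2. The list of spectrins and cytoskeletal giants had calls in 10 of 14 genes at 84.2 per Mb (50.7 to 132). It was led by scrib, a polarity gene placed in this list, alpha-Spec with 29.3 and shot, a spectraplakin, with 23.7. Polycomb and trithorax genes had calls in 8 of 19 at 169 per Mb (92.5 to 284), led by the remodeller ATPase gene brm with 30.8, ash1 with 28.1 and Trl, which encodes GAGA factor, with 27.8. Notch pathway genes had calls in 5 of 15 at 186 per Mb (74.6 to 382), led by dx with 37.2, kuz with 25.4 and numb with 18.3. Segmentation genes had calls in 4 of 20 at 183 per Mb (59.5 to 428), led by cnc with 28.0, kni with 23.8 and hry with 22.7.

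The other lists were below the 182 per Mb of all genes in the pooled list. The interval held 182 for zinc finger and homeodomain relatives and for Hox, cuticle, chromosome and replication, and yolk and eggshell genes. In replicate 1's own list cuticle genes stood at 255 per Mb, near the 248 of all genes. Zinc finger and homeodomain relatives had calls in 4 of 15 genes at 126 per Mb (46.3 to 274), in shn with 26.7, tio with 22.7, pnr with 21.5 and zfh1 with 16.4. The tio and zfh1 calls were held by neither replicate's list. Of the 6 calls in these genes 0 were held by both, where 17.0% of all coding-exon calls were. The count was also 0 in the segmentation, basement membrane, cadherin, and chromosome and replication lists, of 5 or 6 calls each. It was 0 as well for Hox and for yolk and eggshell genes, with 1 call each. Hox genes had 1 call in 11 genes at 64.6 per Mb (1.64 to 360), in abd-A with 17.9, and neither replicate's list held it. Neuronal differentiation genes had calls in 2 of 19, Nrg with 26.0 and Ace with 17.7, at 29.4 per Mb (3.56 to 106), the lowest of the 18 lists. Cadherins and the Irre recognition proteins had calls in 5 of 16 at 51.5 per Mb (18.9 to 112), led by shg, E-cadherin, with 22.5, kirre with 20.5 and Cad99C with 18.7. Basement membrane and matrix genes had calls in 5 of 15 at 67.4 per Mb (24.7 to 147), led by SPARC with 23.3, Tig with 18.9 and vkg, a collagen IV chain, with 17.9. Cuticle genes had calls in 4 of 18 at 142 per Mb (46.0 to 330), led by Cht7 with 27.4, obst-A with 21.5 and Gasp with 20.7. Chromosome and replication genes had calls in 5 of 20 at 130 per Mb (47.6 to 282), led by Top2 with 26.4, CycB with 20.5 and dup with 19.7. Of 11 yolk and eggshell genes 1 had a call, at 76.0 per Mb (1.93 to 424). It was in Yp3 with 15.8, held by neither replicate. Median TSS distance of coding sequence was 11280 bp for neuronal differentiation genes, 6088 bp for the cadherin list and 4039.5 bp for basement membrane genes. For cuticle genes it was 3798 bp, for zinc finger relatives 3707.5 bp and for Hox genes 2115.5 bp. Chromosome and replication genes, at 1681 bp, and yolk and eggshell genes, at 1356 bp, were below the 1865 bp of all genes.

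**Figure D5:**
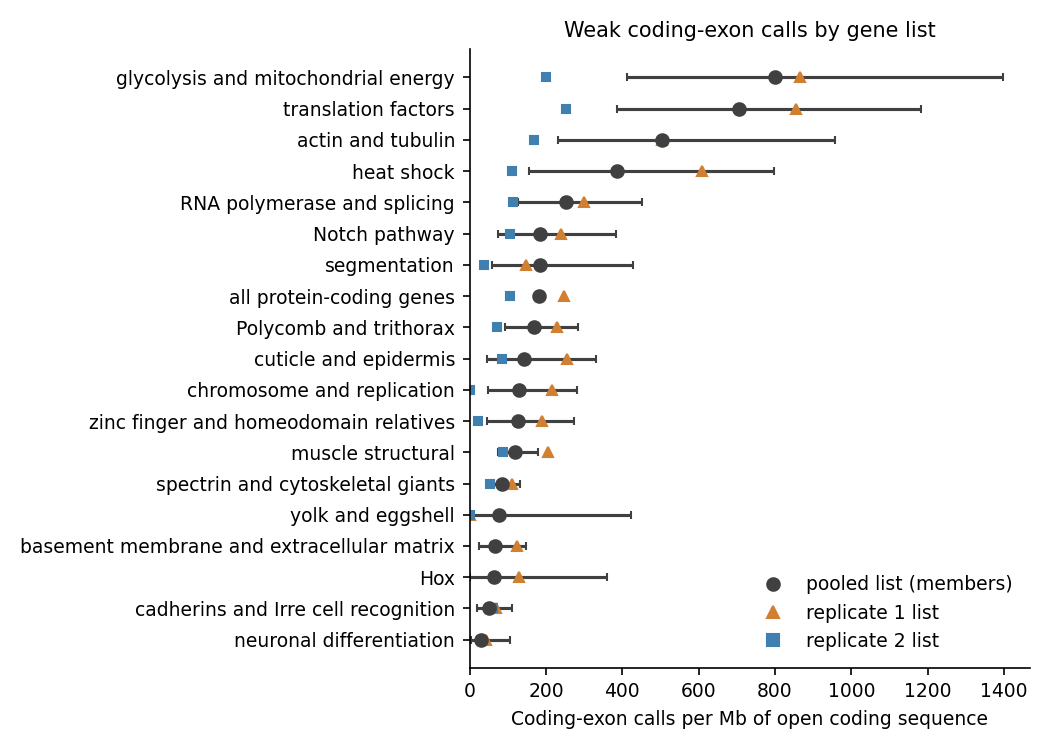
Coding-exon calls per Mb of open coding sequence (x axis) for each gene list (y axis), with the pooled calls and their 95% Poisson intervals as circles and the lists of replicates 1 and 2 as triangles and squares. Energy metabolism stood at 800 per Mb and translation factors at 705, against 182 over all protein-coding genes and 29.4 in neuronal differentiation genes.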

How the data were processed

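Chromatin immunoprecipitation of Zfh2-GFP was read from the deposited peak lists of the dm6 build. The authors deposited a relaxed list for each replicate and for the pooled reads, and an IDR list. In them the deposited signal is the caller's score and the deposited q-value is on the −log10 scale. For aligner, caller and library depth the entry is: not given in the sources used here. With depth unknown, no detection floor is given. The dm3 lists were not used. Coding sequence and start sites came from Ensembl release 115 and sequence from RefSeq, whose arm lengths equalled those of the RefSeq annotation. Arm lengths were not compared with the Ensembl annotation.

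Members were found by position, and densities were taken over coding bases over 500 bp from a TSS and over 200 bp from IDR intervals. Exact (Clopper-Pearson) and Poisson intervals at 95% were computed with SciPy 1.17.1. Genes were named by rule: the 20 strongest calls, the 10 genes with most calls, up to 3 per list and 3 calls on each side of the margin; the 4 zinc finger genes are all those with a call. Of 295 list genes 7 did not match 1 gene on the arms used. The rule was checked on planted calls.

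The members and lists were chosen with earlier results of these data known. The rule applied to each replicate's list as a result, the splits by GC content, GC content by replicate, TSS distance, exon length, gene length, promoter peak and signal quartile, the coding windows, the gene list values per replicate, the shortening of printed windows at untranslated regions and the cutoffs of triplet length were added after values had been seen.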

Additional observations from a re-analysis of the deposited data

How the results depend on the processing

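No paired analysis was possible because there is 1 group and no contrast. With a TSS margin of 1000 bp there were 2201 calls (8.93% of weak calls), and with signal at or above the weak median 1101 (8.93%, 60.1 per Mb). The share was 15.6% with a margin of 250 bp, 11.6% when coding in every transcript was required and 12.8% at 1000 bp from IDR intervals. Leaving out each replicate in turn, by using the other's list, gave 1925 to 4553 calls, 7.94 to 18.4% of weak calls and 105 to 248 per Mb. Support by replicate 1, replicate 2 and both was 76.0%, 36.9% and 22.4% with any shared base, against 74.3%, 64.2% and 44.6% of all weak calls. At or above the weak median signal it was 90.4%, 48.4% and 40.4% against 85.2%, 74.7% and 60.7%. In the strongest 15000 calls of each replicate, an alternative chosen after seeing the data, it was 32.6%, 10.6% and 2.79% against 38.1%, 34.4% and 15.2%. Support by replicate 1 was thus above all weak calls in the first pair and below them in the last, while support by replicate 2 and by both was below them in each. CAGCAG was in 10.7% of windows of 25 bp on each side and 33.3% of windows of 100 bp, against 9.55% and 30.1% of coding windows. Counting transposable element start sites, also added later, gave 3319 calls. Median pooled signal moved little with the settings of position, and median GC content moved little with window width. By replicate list, median GC content was 56.4% in replicate 1 and 53.5% in replicate 2, against 55.4% in the pooled list. Counts of genes were redone only for summits in exactly 1 gene, giving 2699, and for repeated intervals, of which there were 0. For the TSS margin, signal and replicate settings they were not recomputed. An input track was not used here, so enrichment over input was not recomputed.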
